A study of Mus musculus with 20 samples.

Results

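The proteasome genes described here are the 50 protein-coding genes, of 46603 identifiers in the count table, whose mouse names begin with Psma, Psmb, Psmc, Psmd, Psme, Psmf or Psmg followed by a digit. Names were matched through GENCODE release M21, and 4 pseudogenes with matching names (Psmb5-ps, Psmb6-ps, Psmb6-ps2 and Psmb7-ps2) were left out. The members were sorted by role into 31 standard subunits of the 20S core and the 19S cap, 5 interferon-inducible genes (Psmb8, Psmb9, Psmb10, Psme1 and Psme2) and 14 others, which are further activators, an inhibitor, assembly chaperones, tissue-specific subunits and a gene copy. Psmc3ip, a recombination factor, matched by name only and was counted among the others, while Adrm1 and Sem1, which are proteasome subunits, lie outside the name rule and were followed as partners.

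The series measured RNA from mouse cells treated for 8 hours with DMSO vehicle or with thapsigargin, written TG here, which blocks the SERCA pumps that load calcium into the endoplasmic reticulum. TG was given at 50 ng/mL. There were 10 groups of 2 libraries each. B16F10, a mouse melanoma line grown under puromycin, was used as control cells or as cells labelled Ccdc101 knockout (KO), each with vehicle or TG. CD8 T cells carrying the OT-I antigen receptor and Cas9, kept under puromycin with IL-2, IL-7 and IL-15, were used as control cells, resting or activated for 24 hours with plate-bound anti-CD3 at 2.5 ug/mL, each with vehicle or TG. T cells labelled Atp2a2 KO, which lack the gene for SERCA2 according to the label, were labelled resting or activated and received vehicle only. All groups of each cell type shared the puromycin culture. The labels do not say whether the 2 libraries of a group came from separate cultures, so the p-values measure only the spread between libraries, which may be technical, and whether a KO population was 1 clone is not stated in them.

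The proteasome is the protease that degrades ubiquitin-tagged proteins in the cytosol and nucleus. Its 20S core is a stack of rings of alpha and beta subunits, and the catalytic sites lie on beta subunits encoded by Psmb5, Psmb6 and Psmb7. The 19S cap recognises, unfolds and admits substrates. In lymphocytes and in cells exposed to interferon, Psmb8, Psmb9 and Psmb10 take the places of Psmb5, Psmb6 and Psmb7 to form the immunoproteasome, and the PA28 activator made of Psme1 and Psme2 can replace the cap. Both changes alter the peptides offered on MHC class I. NRF1, the product of Nfe2l1, is the transcription factor known for raising standard subunit genes when proteasome activity is short.

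Sequences upstream of 5 members are shown, namely the standard members in which an antioxidant-type motif was found and the inducible member Psmb10, in which none of the motifs searched was found. RefSeq windows on GRCm38.p6 were found for 42 of the 50 members, and the 250 bases before each start were searched on both strands for an antioxidant-type motif (TGACNNNGC), an interferon-type motif (GAAANNGAA) and a gamma-activated motif (TTCNNNGAA). Bases that lie in annotated exons were left out of the printed stretches. Capitals mark the motif matches, and each sequence reads 5′ to 3′ on the strand of its gene. Psmb5 is shown at chr14:54618023-54618245 (minus strand), Psmb6 at chr11:70525107-70525356 (plus), Psmc6 at chr14:45329574-45329787 (plus), Psmd12 at chr11:107479278-107479483 (plus) and Psmb10 at chr8:105938445-105938642 (minus).
Psmb5: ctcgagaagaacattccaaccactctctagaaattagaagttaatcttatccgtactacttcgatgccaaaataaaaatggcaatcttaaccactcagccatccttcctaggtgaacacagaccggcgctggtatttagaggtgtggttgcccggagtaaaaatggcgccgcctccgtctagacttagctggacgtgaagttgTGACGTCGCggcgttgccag
Psmb6: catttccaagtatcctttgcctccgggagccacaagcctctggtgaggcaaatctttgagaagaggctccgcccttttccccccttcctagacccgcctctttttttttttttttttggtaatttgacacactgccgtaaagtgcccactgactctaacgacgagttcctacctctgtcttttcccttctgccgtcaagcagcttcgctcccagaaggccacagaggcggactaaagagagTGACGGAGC
Psmc6: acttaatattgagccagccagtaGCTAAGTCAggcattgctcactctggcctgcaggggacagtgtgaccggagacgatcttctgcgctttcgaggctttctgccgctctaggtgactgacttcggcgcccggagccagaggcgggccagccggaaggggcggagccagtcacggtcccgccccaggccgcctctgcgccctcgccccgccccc
Psmd12: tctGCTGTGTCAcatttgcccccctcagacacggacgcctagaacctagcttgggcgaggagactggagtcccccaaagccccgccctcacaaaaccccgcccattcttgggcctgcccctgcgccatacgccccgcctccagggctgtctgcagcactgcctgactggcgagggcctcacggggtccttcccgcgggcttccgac
Psmb10: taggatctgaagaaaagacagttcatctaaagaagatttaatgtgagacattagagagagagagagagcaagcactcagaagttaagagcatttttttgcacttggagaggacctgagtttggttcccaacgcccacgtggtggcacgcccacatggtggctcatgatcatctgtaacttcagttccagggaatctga

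The antioxidant-type letters were found in 4 of 25 standard members with a window (those of Psmb5, Psmb6, Psmc6 and Psmd12) and in 0 of 5 inducible members, against 11.5% of 27025 genes. The match lay 9 bases before the Psmb6 start and 47 bases before that of Psmb5, but 227 and 247 bases before those of Psmc6 and Psmd12. Interferon-type letters were present in 2 of 25 standard members (Psmb3 and Psmd4), in 0 of 5 inducible members and in 8.18% of all genes. The gamma-activated letters occurred in 0 of 25 standard members, in 1 of 5 inducible members (Psmb8) and in 8.13% of all genes. A match describes letters in the window and not a bound site.

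Library totals ran from 9985311 to 17462770 counts. The gene labelled Ccdc101, now named Sgf29, was measured at 28.2 to 29.6 CPM (counts scaled to the size of the library) in control melanoma with vehicle and at 18.7 to 19.6 in the KO libraries, so its RNA was lower but present. Atp2a2 stood at 664 to 687 CPM in activated control T cells and at 434 to 436 in activated KO cells. The libraries labelled resting Atp2a2 KO went against their label in Atp2a2 and in activation markers. Atp2a2 was at 452 to 455 CPM there against 225 to 226 in resting control cells. The sum of 10 activation markers was 35051 to 35232 CPM there, 13096 to 13606 in resting and 34479 to 35322 in activated control cells. Gzmb was the largest part of these sums, and all 10 but Cd69 were higher there than in resting control cells. The sum of 6 resting T cell markers matched neither group, at 608 to 617 CPM there, 699 to 708 in resting and 818 to 832 in activated control cells. Results that use these KO libraries are given as those of the libraries labelled resting. 8 CD8 T cell markers summed to 3630 to 8230 CPM in T cells and to 2.89 to 8.19 in melanoma, while 7 melanocyte markers summed to 11066 to 17222 CPM in melanoma. The melanocyte sum was 5.07 to 7.50 CPM in control T cells and 0.304 to 1.28 in Atp2a2 KO T cells, and its part in the KO comparisons was not tested. In bulk RNA, fewer cells of a type and less RNA per cell cannot be told apart.

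The immunoproteasome separated the 2 cell types. Psmb8 had 5 counts over both control melanoma libraries with vehicle and Psmb9 had 1, against 13110 and 4292 counts over the resting T cell libraries. As shares of counts, Psmb8 was 3222 times as high in resting T cells (95% exact interval 1380 to 9926, for counting error only) and Psmb9 5275 times (946 to 208383). In activated T cells the ratios were 1984 (850 to 6111) and 2006 (360 to 79286). Psmb8 had 1 to 4 counts in every melanoma library and Psmb9 had 0 or 1. With TG the control melanoma libraries held 0 counts of Psmb9, which allows up to 0.139 CPM over the group.

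Psmb10, Psme1 and Psme2 were measurable in melanoma but far lower than in T cells. Melanoma minus resting T cells gave log2 differences of -4.04 ± 0.0696 (SE) for Psmb10, -3.67 ± 0.0509 for Psme1 and -4.35 ± 0.0614 for Psme2. Against activated T cells the differences were -2.72 ± 0.0782, -3.18 ± 0.0514 and -4.26 ± 0.0608. Psmb10, Psme1 and Psme2 were called lower in melanoma in both comparisons (edgeR's quasi-likelihood test, Benjamini-Hochberg adjusted p below 0.05, the rule for every call here). Psmb8 and Psmb9 passed the low-count filter of that fit only through the T cell libraries, so their calls were fixed by the filter and are not counted. Of all 14824 genes tested, 43% were lower and 40.8% higher against resting T cells, and 43.7% lower and 39% higher against activated T cells.

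The standard subunits did not share this contrast. Against resting cells 19 of 31 were higher in melanoma and 10 lower, with a median log2 difference of 0.51 beside -0.035 over all genes. Against activated cells 5 were higher and 18 lower, with a median of -0.14 beside -0.088. All 6 ATPases of the 19S cap were higher in melanoma than in resting T cells, led by Psmc5 (1.28 ± 0.0437), and Psmd7 of the lid was also higher (1.18 ± 0.0457). In the core, 5 of 7 alpha ring genes and all 4 non-catalytic beta genes were lower, such as Psmb2 (-0.81 ± 0.0453) and Psma2 (-0.72 ± 0.04604). Core and cap did not divide cleanly, since Psmb6 (0.49 ± 0.0452), Psmb7 (0.69 ± 0.0452) and Psma3 (0.51 ± 0.0544) of the core were higher and Psmd13 of the cap was lower (-0.19 ± 0.0434). Psmc3ip was higher in melanoma by 1.21 ± 0.108 and Psmc1, a cap ATPase, by 1.02 ± 0.0428. Against activated cells the members higher in melanoma were led by Psmc3ip (0.98 ± 0.0964), Psmc1 (0.50 ± 0.0398), Psmd8 (0.40 ± 0.0385) and Psme4 (0.37 ± 0.0394).

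A pair of members were hardly expressed. Psma8, the alpha subunit of the testis proteasome, had 0 counts in all 8 melanoma libraries and 1 to 7 counts in each T cell library. Psmb11, the catalytic subunit of thymic epithelium, had 0 counts in melanoma and 0 to 2 in T cells. Neither passed the filter on low counts, so 48 members were tested in T cells, and 46 in melanoma, where Psmb8 and Psmb9 did not pass either.

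Levels of different genes were compared per length, first by exon union, and the order depends on the length used. Psmb8 was the highest of the 50 members in resting T cells, at 178 ± 0.799 RPKM (CPM per kilobase of exon; SD, n = 2). It was also the highest there by the longest transcript, at 315 ± 1.42 RPKM, an order added after seeing the data. With TG, Psme2 had the highest level by both lengths in resting cells (242 ± 3.72 RPKM by exon union) and in activated cells (204 ± 7.75). In activated T cells with vehicle Psma6 led by exon union with 175 ± 7.17 RPKM, within the spread of Psmb2 at 166 ± 6.67, and Psmb2 led by the longest transcript with 233 ± 9.35 RPKM. In control melanoma the cap ATPase Psmc5 led by exon union at 167 ± 2.804 RPKM, and the cap gene Psmd8 led by the longest transcript at 171 ± 3.08. The inducible members ranked between 39 and 48 there by exon union and between 42 and 48 by the longest transcript.

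Activation of control T cells with vehicle raised the standard proteasome and lowered the inducible one. Of 31 standard members 29 rose and 1 fell, with a median log2 change of 0.70 beside -0.038 over all 13432 genes tested, of which 35.3% rose and 39.1% fell. Of the 5 inducible members 0 rose and 4 fell, with a median of -0.70. The 31 standard genes summed to 3919 to 4060 CPM in resting and 5915 to 6014 in activated libraries, and the 3 immunosubunits to 895 to 904 in resting and 473 to 487 in activated ones.

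The rise differed among the parts of the particle. All 11 non-ATPase cap genes rose, with a median log2 change of 0.85. At their top was Psmd7, the partner of the deubiquitinase in the lid, with 86.2 and 88.01 CPM in resting and 182 and 196 in activated libraries (1.11 ± 0.0468). All 6 cap ATPases rose, median 0.82, with Psmc5 at 91.8 and 87.1 CPM before and 186 and 190 after (1.07 ± 0.0445). The 7 alpha ring genes all rose, with a lower median of 0.30. Among the 4 non-catalytic beta genes Psmb2 and Psmb3 rose by 0.30 ± 0.0414 and 0.42 ± 0.0547, Psmb1 fell by 0.18 (SE 0.0411) and Psmb4 was not called (-0.039 ± 0.04198). Beyond the standard class, Psme3, which encodes the PA28 gamma activator of the nucleus, rose from 225 and 218 CPM to 447 and 457 (1.03 ± 0.0373), and the core chaperone gene Psmg3 rose by 1.03 ± 0.102. No called member had libraries that overlapped between the resting and activated groups. The share of all called genes without overlap was not counted, so this adds nothing to the calls.

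The catalytic pairs moved in opposite directions. Psmb5, the chymotrypsin-like site, was at 38.6 and 42.5 CPM in resting and 66.3 and 66.6 in activated libraries, a log2 change of 0.72 ± 0.0622 (edgeR adjusted p = 1.85e-15). Psmb8, its inducible counterpart, was at 566 and 561 CPM in resting and 342 and 350 in activated libraries (-0.70 ± 0.03597, edgeR adjusted p = 6.10e-25). Both genes kept their groups apart, with Psmb5 high and Psmb8 low after activation. Psmb6, the caspase-like site, went from 109 and 106 CPM to 206 and 206 (0.94 ± 0.0457). Psmb9, which takes its place, went from 186 and 182 CPM to 67.9 and 72.6 (-1.40 ± 0.0488), the largest fall of the 48 members tested in this comparison. The trypsin-like site showed the same opposition. Psmb7 went from 106 and 101 CPM to 181 and 185 (0.82 ± 0.04497) and Psmb10 from 151 and 152 to 62.8 and 63.8 (-1.26 ± 0.04804). Psme1 went from 318 and 300 CPM to 232 and 223 (-0.44 ± 0.0394). Its PA28 partner Psme2 had 210 and 200 CPM in resting and 198 and 201 in activated libraries, which was not called (-0.042 ± 0.0413, edgeR adjusted p = 0.365) and whose sign turned with no low-count filter (0.058). Psme2b, a copy of Psme2 with which it may share reads, fell by 0.72 (SE 0.0841).

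**Figure D1:**
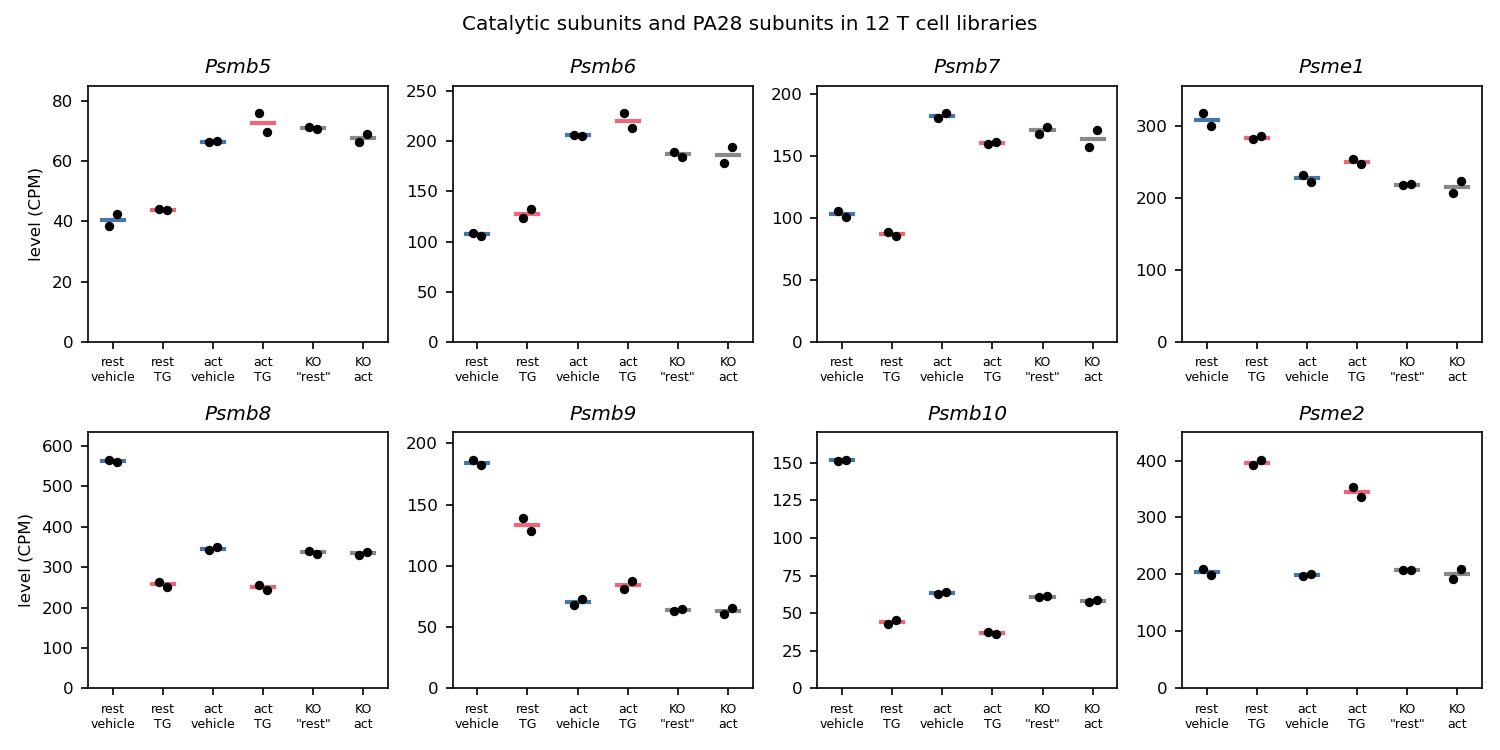
Levels in CPM (vertical axes from 0) of the standard catalytic genes Psmb5, Psmb6 and Psmb7, the immunosubunit genes Psmb8, Psmb9 and Psmb10, and the PA28 genes Psme1 and Psme2 in the 12 T cell libraries. Points are libraries and bars are group means; after activation with vehicle the 3 standard genes stand higher and the 3 immunosubunit genes lower, and Psme2 is highest in resting cells with TG (392 and 401 CPM).

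**Figure D2:**
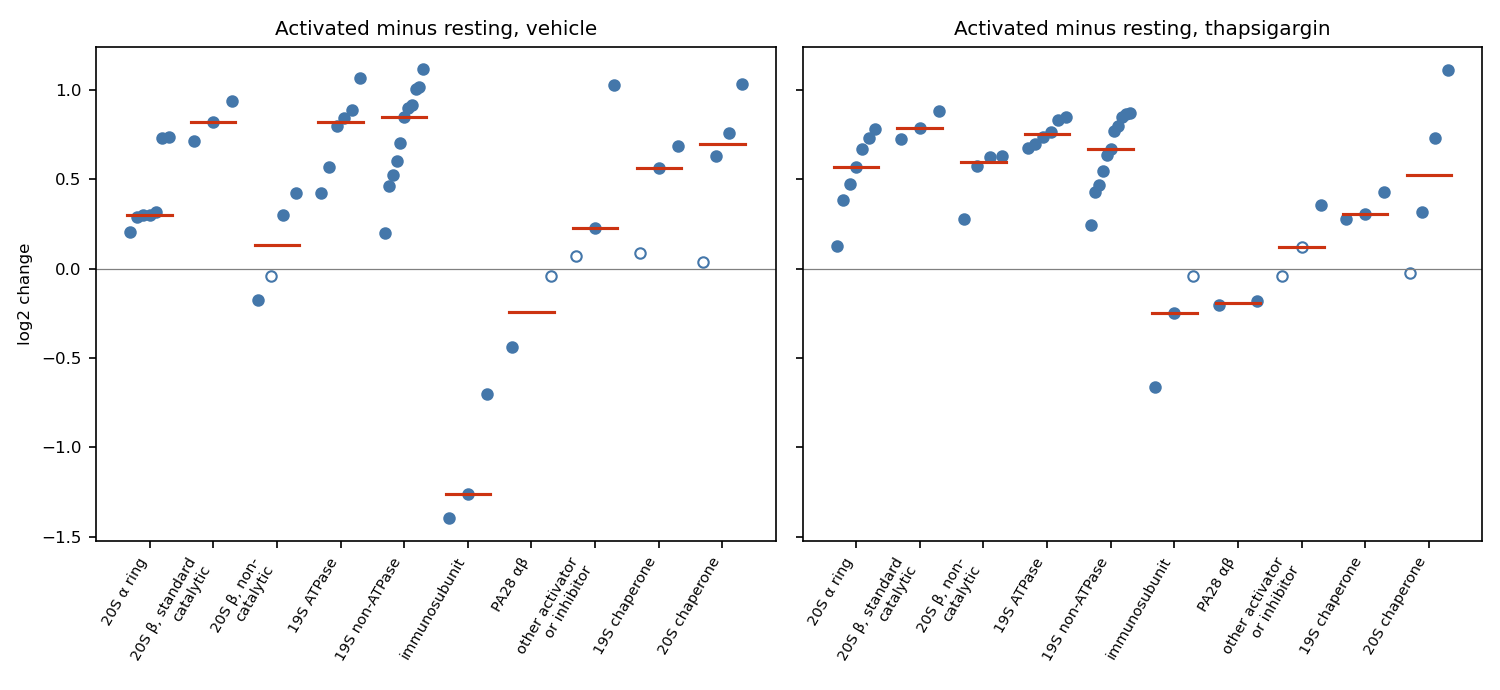
Log2 change from resting to activated control T cells for each tested member, by role, with vehicle (left) and with TG (right). Filled points passed an adjusted p of 0.05, open points did not, and bars are medians; core and cap genes lie above 0 apart from Psmb1 and Psmb4 with vehicle, and the immunosubunits lie below 0.

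The same comparison in TG-treated cells gave 31 standard members higher and 0 lower, with a median of 0.67 beside -0.0047 over all genes, where 32% of genes rose and 31.9% fell. The alpha ring median was 0.57 and that of the non-catalytic beta genes 0.60. The core chaperone gene Psmg1 rose most (1.11 ± 0.0931), followed by Psmb7 (0.88 ± 0.04696), Psmd1 (0.87 ± 0.0434) and Psmd12 (0.86 ± 0.0521). Psmb9 (-0.66 ± 0.0504), Psmb10 (-0.25 ± 0.0663), Psme2b (-0.24 ± 0.0748) and Psme2 (-0.20 ± 0.0384) fell, as did Psme1 (-0.18 ± 0.0397). Psmb8 was not called (-0.042 ± 0.0384).

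TG in resting T cells lowered the immunosubunits and left the standard class divided. Of 31 standard members 8 rose and 19 fell, with a median log2 change of -0.20 beside 0.0064 over all genes, of which 34.1% rose and 35.2% fell. Of the 5 inducible members 1 rose and 4 fell. Psmb10 fell furthest, from 151 and 152 CPM to 42.7 and 45.3 (-1.79 ± 0.0529). Psmb8 fell from 566 and 561 CPM to 265 and 251 (-1.13 ± 0.0371) and Psmb9 from 186 and 182 to 139 and 128 (-0.46 ± 0.0459). None of these groups overlapped, but that share was not counted over all genes, so this adds nothing to the calls. Psme2 went the other way, from 210 and 200 CPM to 392 and 401 (0.95 ± 0.0401). Its partner Psme1 had 318 and 300 CPM before and 282 and 286 after (-0.12 ± 0.0393), a call that was lost without resting vehicle replicate 1 (-0.076) or resting TG replicate 1 (-0.100). Psme2 was the only inducible member that rose here.

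Beside Psme2, the largest rises were those of an activator, an assembly chaperone and cap genes. Psme4, the PA200 activator, went from 144 and 139 CPM to 255 and 267 (0.89 ± 0.0406). Psmd5, a chaperone of cap assembly, went from 56.7 and 57.1 to 93.6 and 93.7 (0.72 ± 0.0535), and Psmd7 from 86.2 and 88.01 to 126 and 125 (0.53 ± 0.0497). The cap genes Psmd11 (0.51 ± 0.0465) and Psmc2 (0.48 ± 0.0495) also rose. Psma5 (-0.72 ± 0.0735) and Psma2 (-0.66 ± 0.0471) led the falls of the alpha ring, where 6 of 7 fell and Psma3 rose (0.28 ± 0.0571), and all 4 non-catalytic beta genes fell. Psmc3ip fell by 0.83 (SE 0.153) from a low level of 10.5 and 9.51 CPM. The standard catalytic genes split. Psmb6 rose from 109 and 106 to 123 and 133 CPM (0.25 ± 0.0487), Psmb7 fell from 106 and 101 to 89.1 and 85.4 (-0.24 ± 0.05002) and Psmb5 was not called (38.6 and 42.5 against 44.2 and 43.6, 0.12 ± 0.0689).

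In activated T cells TG lowered more standard members than it raised: 4 rose and 18 fell of 31, with a median of -0.13 beside 0.0080 over all genes, where 32.6% rose and 32.4% fell. The inducible members did not move together, with 3 higher and 2 lower. Psmb10 went from 62.8 and 63.8 CPM to 37.8 and 36.3 (-0.77 ± 0.0602) and Psmb8 from 342 and 350 to 257 and 244 (-0.47 ± 0.0374). Psmb9 instead rose, from 67.9 and 72.6 CPM to 81.4 and 87.8 (0.27 ± 0.0538), and so did Psme2, from 198 and 201 to 354 and 335 (0.79 ± 0.0397). None of these 4 groups of libraries overlapped between vehicle and TG, which adds nothing to the calls, since that share was not counted over all genes. Psme1 had 232 and 223 CPM before and 254 and 247 after (0.14 ± 0.0398), a call that was lost without resting TG replicate 2 (0.088) or activated vehicle replicate 2 (0.11), or with no low-count filter (0.056).

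The standard catalytic genes moved little in activated cells. Psmb5 had 66.3 and 66.6 CPM with vehicle and 75.9 and 69.7 with TG (0.13 ± 0.05501, edgeR adjusted p = 0.0369), and Psmb6 had 206 and 206 with vehicle and 228 and 214 with TG (0.099 ± 0.0419, edgeR adjusted p = 0.0352). Both calls were lost under relative log expression scaling (0.11 and 0.080), with no low-count filter (0.047 and 0.018) and with DESeq2 (0.11 and 0.080). They were also lost without any 1 of resting TG replicate 1 or 2, activated vehicle replicate 1 or 2, or activated TG replicate 1, with values of 0.079 to 0.13 for Psmb5 and 0.050 to 0.10 for Psmb6. Psmb7 fell from 181 and 185 to 160 and 162 (-0.18 ± 0.0422). After Psme2, the largest rises of any member were those of Psme2b (0.78 ± 0.0824), Psme4 (0.62 ± 0.03895) and Psmc2 (0.47 ± 0.0427). Falls were led by Psmc3ip (-0.94 ± 0.136), Psmb10, Psmd12 of the lid (-0.49 ± 0.0453) and Psmb8.

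The difference between these TG effects was tested directly, activated minus resting. It was called for 31 of 48 members. It was positive for 11 standard and 4 inducible members and negative for 8 and 1, against 26.7% positive and 25.2% negative of all genes. The immunosubunits fell less, or turned, in activated cells, with differences of 1.01 ± 0.0825 for Psmb10, 0.74 ± 0.0707 for Psmb9 and 0.66 ± 0.0526 for Psmb8. The members with called effects of opposite sign numbered 5: Psmd7 (0.53 in resting and -0.35 in activated cells), Psme3 (0.24 and -0.44), Psmg3 (0.28 and -0.43), Psmb9 (-0.46 and 0.27) and Psme1 (-0.12 and 0.14). Psmd7 had the most negative difference of the 48, -0.87 ± 0.0659, with 182 and 196 CPM in activated cells with vehicle and 148 and 149 with TG. All 4 non-catalytic beta genes had positive differences, Psmb4 the largest (0.61 ± 0.0607).

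Paired by active site, the per-length ratio of Psmb8 to Psmb5 was 3.704 ± 0.274 (SD, n = 2) in resting cells with vehicle, 1.56 ± 0.0414 in resting cells with TG, 1.39 ± 0.0195 in activated cells with vehicle and 0.917 ± 0.0218 in activated cells with TG. That of Psmb10 to Psmb7 in the same order was 2.95 ± 0.113, 1.01 ± 0.0717, 0.695 ± 0.00142 and 0.462 ± 0.0157. The ratio of Psmb9 to Psmb6 was 0.878 ± 0.00315, 0.537 ± 0.0591, 0.175 ± 0.00875 and 0.197 ± 0.0194. Resting cells with vehicle had the highest immunosubunit share at each site, and activated cells had a lower one than resting cells on either treatment. In control melanoma with vehicle Psmb10 to Psmb7 was 0.111 ± 0.00592. The choice of gene length multiplies a ratio by the same factor in every group, and with the longest transcript as length the resting ratios became 6.57, 3.19 and 0.575 for Psmb8, Psmb10 and Psmb9. Psmb8 to Psmb5 in activated cells with TG became 1.625, so whether a ratio lies above or below 1 can depend on the length. A ratio of RNA levels does not measure the makeup of assembled particles.

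**Figure D3:**
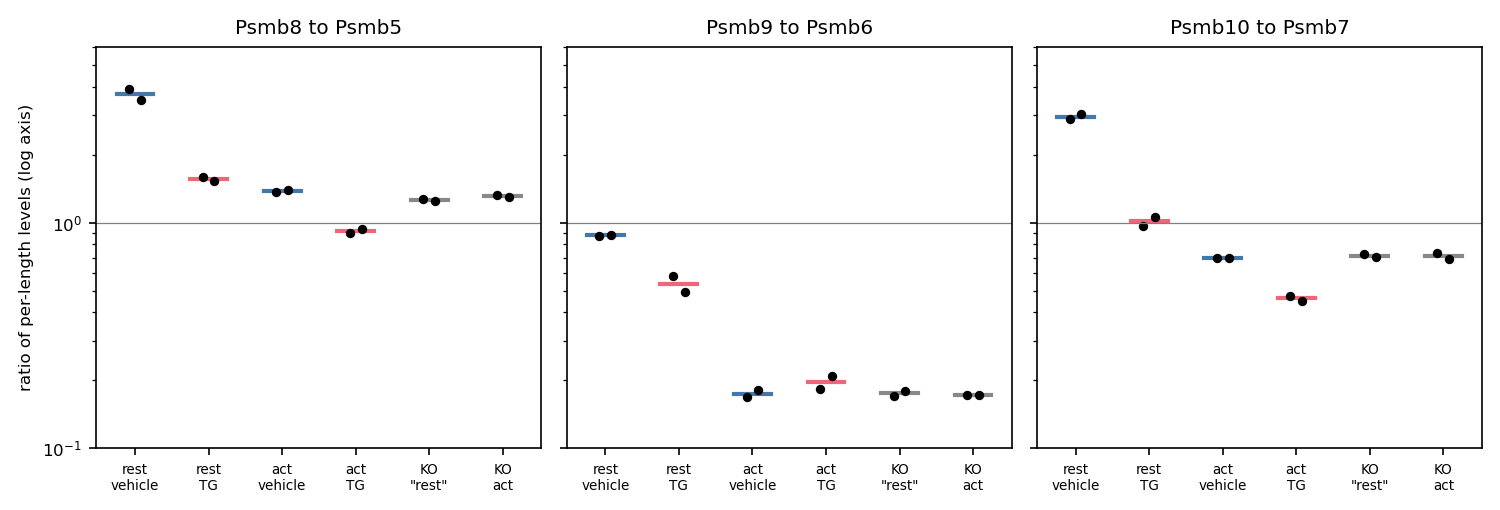
Ratio of per-length RNA levels, on a log axis, of each immunosubunit gene to the standard gene for the same active site in the 6 T cell groups. Points are libraries, bars are group means and the line marks equal levels by exon union. The side of the line can depend on the gene length, as for Psmb8 to Psmb5 in activated cells with TG (0.917, but 1.625 by the longest transcript). Resting cells with vehicle have the highest ratio in each panel, 3.704 ± 0.274 for Psmb8 to Psmb5.

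Activated T cells labelled Atp2a2 KO had standard genes lower by small amounts. Of 31 standard members 0 rose and 22 fell, with a median log2 change of -0.15 beside -0.0043 over all genes, of which 17.5% rose and 19.6% fell. At an unadjusted p below 0.05 edgeR had 1 standard member higher. The count of 22 became 12 without activated Atp2a2 KO replicate 1. All 6 cap ATPases, 6 of 7 alpha ring genes and 7 of 11 non-ATPase cap genes were among them. Psmd12 was at 181 and 190 CPM in control and 147 and 154 in KO cells (-0.30 ± 0.0438), with no overlap. Psmc3ip fell by 0.61 (SE 0.124), Psma6 by 0.27 (SE 0.0409) and Psmd7 by 0.26 (SE 0.0422).

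The inducible genes differed little between KO and control. Psmb8 was at 330 and 339 CPM in KO and 342 and 350 in control cells (-0.049 ± 0.0364, not called), and Psmb10 at 57.5 and 58.97 against 62.8 and 63.8 (-0.12 ± 0.0537, not called). Psme1 (207 and 224 CPM in KO cells, -0.082 ± 0.0398) and Psme2 (192 and 209, 0.0084 ± 0.0407) were not called either. Psmb10 and Psme1 passed the test as lower without resting TG replicate 1 (-0.15 and -0.11) or 2 (-0.15 and -0.11), and Psme1 without KO replicate 2 (-0.14). Psmb9 fell, with 60.3 and 65.5 CPM against 67.9 and 72.6 (-0.16 ± 0.0551, edgeR adjusted p = 0.0166), and its libraries did not overlap. That call was lost with DESeq2 (-0.17) and without activated vehicle replicate 2 (-0.12) or KO replicate 1 (-0.097). Among the standard catalytic genes Psmb6 (178 and 194 against 206 and 206 CPM, -0.15 ± 0.04196) and Psmb7 (157 and 171 against 181 and 185, -0.16 ± 0.0415) fell, and both calls were lost without KO replicate 1 (-0.087 and -0.098). Psmb5 was not called (66.3 and 69.2 against 66.3 and 66.6 CPM, 0.023 ± 0.0543).

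TG-treated control cells were then set against KO cells, both activated. TG libraries were higher in 11 standard members and lower in 5, where 30.5% of all genes were higher and 30% lower, with a median of -0.013 beside -0.00076 over all genes. Psme2 was higher with TG by 0.78 ± 0.0398, the cap ATPase Psmc2 by 0.68 ± 0.0435, Psme2b by 0.60 ± 0.0811, Psmd5 by 0.56 ± 0.0464 and Psmb9 by 0.44 ± 0.0551. Psmb10 (-0.65 ± 0.0614), Psmb8 (-0.42 ± 0.0375), Psmg3 (-0.25 ± 0.0947) and Psmd3 (-0.23 ± 0.0387) were lower with TG. The drug was present for 8 hours, and the time since gene editing is not stated in the labels.

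The libraries labelled resting Atp2a2 KO had proteasome levels near those of activated cells. Against resting control cells 29 standard members were higher and 1 lower, with a median of 0.57 beside -0.022 over all genes (33.7% higher, 35.9% lower). Psmc5 (0.96 ± 0.0464), Psmg3 (0.93 ± 0.111), Psmd7 (0.91 ± 0.0493) and Psme3 (0.85 ± 0.0381) led. Of the inducible members 4 of 5 were lower: Psmb9 (-1.52 ± 0.0531), Psmb10 (-1.31 ± 0.05198), Psmb8 (-0.74 ± 0.0368) and Psme1 (-0.50 ± 0.0408). In these libraries Psmb8 was at 341 and 333 CPM, Psmb9 at 63.5 and 64.99, Psmb10 at 60.6 and 61.2 and Psme1 at 218 and 219. Psmb5 was at 71.3 and 70.8 CPM, Psmb6 at 190 and 185, Psmb7 at 168 and 174 and Psme2, which was not called (0.019 ± 0.0426), at 207 and 208. The called genes among these 8 did not overlap with the resting control libraries, a share not counted over all genes, so this adds nothing to the calls. Between activated KO libraries and those labelled resting, 0 members were called higher and 0 lower by edgeR, where 0.469% of all genes were higher and 0.119% lower. At an unadjusted p below 0.05 these counts were 0 and 7. DESeq2 called 0 standard and 0 inducible members higher, but its lower calls, the direction of the 7, were not counted. Psma5 came nearest to a call (-0.24 ± 0.0624, edgeR adjusted p = 0.0551).

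In control melanoma TG lowered most of the standard class. Of 31 members 4 rose and 21 fell, with a median log2 change of -0.28 beside -0.00082 over all 12540 genes tested, of which 35.7% rose and 36.1% fell. The standard genes summed to 5879 to 5914 CPM with vehicle and 4991 to 5173 with TG. All 7 alpha ring genes fell, median -0.52, with Psma5 at 63.3 and 57.5 CPM with vehicle and 40.8 and 39.8 with TG (-0.59 ± 0.0674) and Psma2 at 121 and 114 and 79.9 and 77.3 (-0.58 ± 0.0514). No called member had libraries that overlapped between the groups, which adds nothing to the calls, since that share was not counted over all genes. Psmd3 of the cap fell by 0.55 (SE 0.0377) and Psmc3ip by 1.29 (SE 0.107). The standard members that rose were Psmd8 (356 and 367 to 436 and 458 CPM, 0.31 ± 0.0363), Psmd14, the deubiquitinase of the lid (0.16 ± 0.04195), Psmb6 and Psmd11 (0.12 ± 0.0413). Psmf1, which encodes the inhibitor PI31, rose by 0.25 ± 0.0594 and Psme4 by 0.24 ± 0.0395.

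The catalytic genes of melanoma went separate ways. Psmb5 was at 47.8 and 49.9 CPM with vehicle and 53.4 and 51.4 with TG, which was not called (0.10 ± 0.06304). Psmb6 went from 168 and 173 to 187 and 187 (0.13 ± 0.0408), a call lost with no low-count filter (0.081). Psmb7 went from 188 and 189 to 134 and 136 (-0.48 ± 0.0437). Psmb6 was higher and Psmb7 lower in both TG libraries than in both vehicle libraries. Psmb10, low in these cells, went from 10.8 and 10.1 to 7.38 and 5.33 (-0.72 ± 0.153, edgeR adjusted p = 6.35e-05). Psme1 went from 26.96 and 27.9 to 22.1 and 21.02 (-0.35 ± 0.0864), and Psme2 had 11.3 and 11.5 against 10.0 and 9.32 (-0.23 ± 0.128, not called).

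In Ccdc101 KO melanoma 7 standard members rose with TG and 17 fell, with a median of -0.15 beside -0.020 over all genes (34.1% higher, 36.3% lower). The alpha ring fell in 6 of 7 genes, median -0.41. Psmc3ip (-1.21 ± 0.103), Psmb10 (14.997 and 13.9 to 9.505 and 8.86 CPM, -0.66 ± 0.132), Psmd3 (-0.52 ± 0.0379) and Psma7 (-0.47 ± 0.0455) fell most. Psmd14 rose most (0.32 ± 0.0415), with Psmf1 (0.24 ± 0.06096), Psmb6 (158 and 167 to 188 and 189 CPM, 0.22 ± 0.04098) and Psmd8 (0.20 ± 0.0372). Psmb7 fell from 189 and 198 to 148 and 161 CPM (-0.32 ± 0.0428). Psme1 had 27.3 and 26.9 CPM with vehicle and 24.9 and 23.5 with TG (-0.17 ± 0.0843, not called) and Psme2 had 14.9 and 15.2 and 16.2 and 15.9 (0.094 ± 0.108, not called). Psmb5 rose from 52.6 and 50.03 to 56.9 and 59.6 (0.18 ± 0.0613), a call that was lost without Ccdc101 KO TG replicate 2 (0.15) and with DESeq2 (0.20).

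The difference of TG effects between Ccdc101 KO and control melanoma was positive for 5 standard members and negative for 0, against 7.16% and 5.95% of all genes. No standard member was negative at an unadjusted p below 0.05 by edgeR either. Over all genes 54.6% of calls were positive by edgeR and 66.6% by DESeq2. The standard members called were Psmd1 (0.21 ± 0.0529), Psmc6 (0.19 ± 0.0551), Psmd2 (0.18 ± 0.0478), Psmd7 (0.17 ± 0.0574) and Psmc5 (0.17 ± 0.0553). Psmd2, which encodes the ubiquitin-binding scaffold of the cap base, had 488 and 476 CPM in control and 462 and 478 in KO cells with vehicle, and 346 and 353 and 380 and 392 with TG. The KO libraries with TG were above the control libraries with TG. Psmd5 (0.30 ± 0.0781) and Psme3 (0.14 ± 0.04704) were called outside the class. The count of 5 became 3 without control vehicle replicate 1, 10 without control TG replicate 1, 2 without control TG replicate 2 or KO vehicle replicate 1, and 0 without KO TG replicate 2.

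Ccdc101 KO melanoma with vehicle differed from control in few members. The standard members higher were Psma6 (0.20 ± 0.0452) and Psmc2 (0.12 ± 0.0413), and those lower Psmd8 (-0.23 ± 0.0368) and Psmd3 (-0.11 ± 0.0362), with a class median of -0.0081 beside 0.0031 over all genes. Over all genes 12.4% were higher and 13.3% lower, and 48.2% of calls were higher by edgeR and 37.2% by DESeq2. Psmb10 was at 14.997 and 13.9 CPM in KO and 10.8 and 10.1 in control cells (0.47 ± 0.123, edgeR adjusted p = 0.003396), and Psme2 at 14.9 and 15.2 against 11.3 and 11.5 (0.40 ± 0.112, edgeR adjusted p = 0.00579). Both were higher in each KO library than in each control library. Neither was called with DESeq2 (0.46 and 0.39). Psmb10 was not called without KO vehicle replicate 1 (0.40), nor Psme2 without control vehicle replicate 1 (0.37) or KO vehicle replicate 2 (0.37). The count of 2 higher standard members became 1 without control vehicle replicate 1 or 2 or KO vehicle replicate 1, and 0 without KO vehicle replicate 2. The core chaperone gene Psmg2 was higher (0.28 ± 0.0806), and Psmd5 (-0.18 ± 0.0517) and Psme3 (-0.12 ± 0.03301) were lower.

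With TG 14 standard members were higher in the Ccdc101 KO and 1 was lower, with a median of 0.11 beside 0.011 over all genes, where 16.6% were higher and 15% lower. The 14 became 6 without control TG replicate 2 and 7 without KO TG replicate 2. Among members at 10 CPM or more, the largest positive differences were those of Psme2 (16.2 and 15.9 against 10.0 and 9.32 CPM, 0.73 ± 0.123), Psmg2 (0.32 ± 0.0823), Psma6 (0.25 ± 0.04895) and Psmc6 (0.24 ± 0.0393). Psmd8 (-0.33 ± 0.0367), Psmd9 (-0.22 ± 0.0714) and Psme4 (-0.22 ± 0.03996) were lower. Psmb10 was at 9.505 and 8.86 against 7.38 and 5.33 CPM (0.53 ± 0.162), a call that was lost with DESeq2 (0.53) and without control TG replicate 2 (0.31) or KO TG replicate 1 (0.49). The comparisons of control and Ccdc101 KO melanoma share libraries, so their counts are not independent.

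The TG effect of control melanoma was set against that of T cells in a fit of all 20 libraries. Melanoma minus resting T cells was called for 30 of 48 members, with 6 standard members positive and 15 negative (23.6% and 23.8% of all genes). Psmd5 had the most negative difference, -1.21 ± 0.0764, with 86.2 and 86.9 CPM falling to 65.5 and 59.8 in melanoma while the T cell level rose. Psme2 (-1.20 ± 0.119), Psmd7 (-0.89 ± 0.0646) and Psmg4 (-0.68 ± 0.168), a core chaperone gene, followed. Psmb10 was positive (1.05 ± 0.163), since its fall in resting T cells was larger. Psma3, Psmc2, Psmd5, Psmd7 and Psmg3 had called effects of opposite sign, lower with TG in melanoma and higher in resting T cells. Against activated T cells 1 standard member was positive and 14 were negative (21.6% and 21.8% of all genes). Psme2 (-1.05 ± 0.119), Psmd5 (-0.96 ± 0.07095), Psmc2 (-0.64 ± 0.0627) and Psmg4 (-0.63 ± 0.164) were the most negative, and Psmb10 was not called (0.026 ± 0.164). Both differences use the same melanoma libraries. Psmb8 and Psmb9, at 0 to 4 counts per melanoma library, gave no usable difference.

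**Figure D4:**
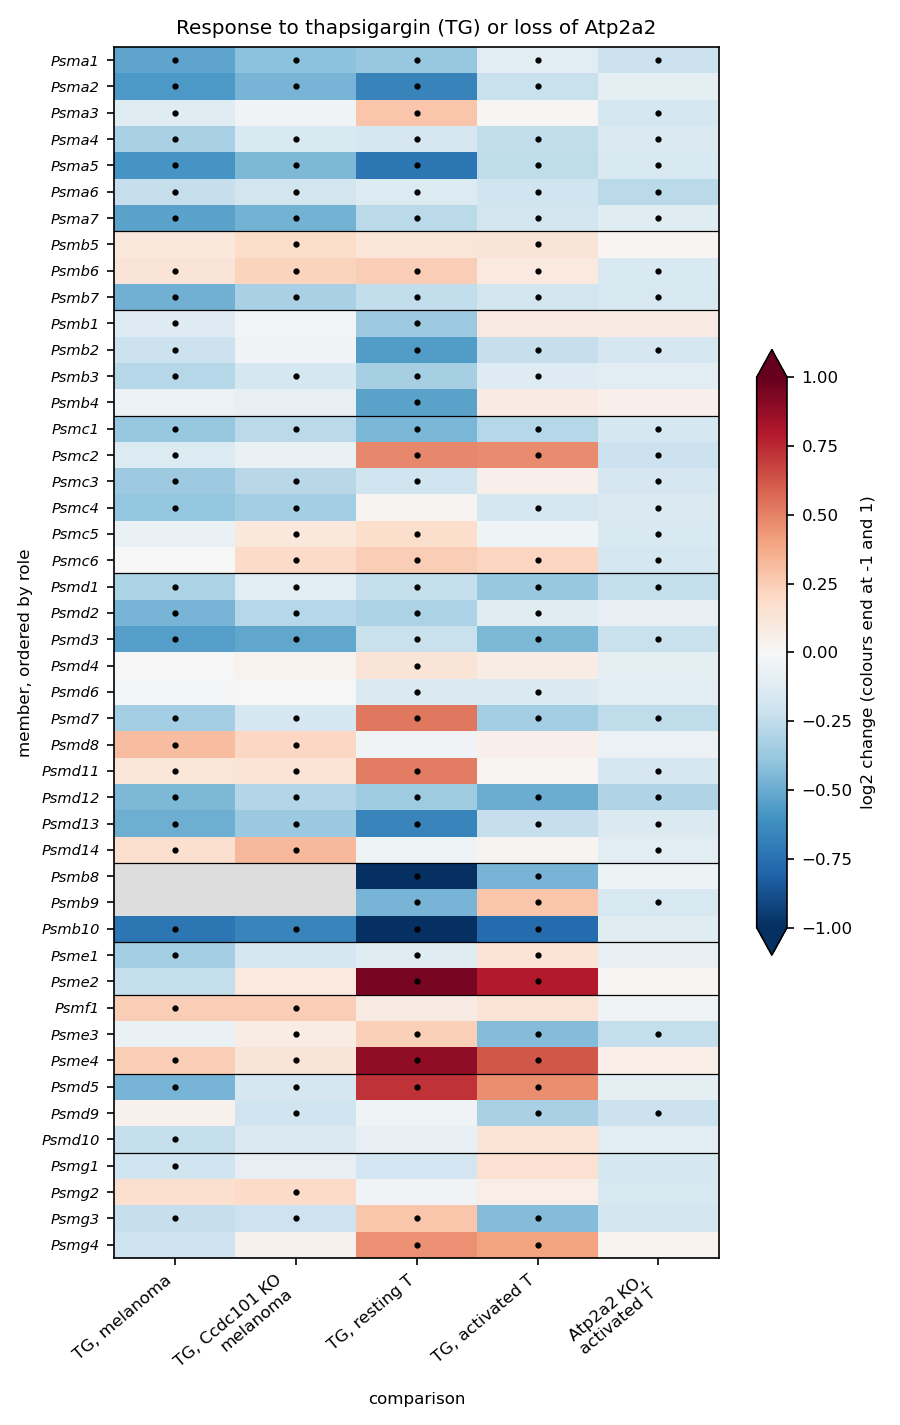
Log2 change of each member by role for TG in control melanoma, Ccdc101 KO melanoma, resting and activated T cells, and for Atp2a2 KO in activated T cells. Colours end at -1 and 1, red is higher, blue lower, grey not tested and dots mark an adjusted p below 0.05; the alpha ring is blue across the TG columns apart from Psma3 in T cells (0.28 in resting and 0.014 in activated cells).

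Genes that control or assist the proteasome were followed as fixed lists. A list of 12 held NRF1 (Nfe2l1), the related factor NRF2 (Nfe2l2), their small Maf partners (Maff, Mafg and Mafk) and 7 genes of protein extraction and processing (Ddi2, Ngly1, Vcp, Ufd1, Nploc4, Syvn1 and Sel1l). TG raised 10 and lowered 0 of them in control melanoma, 10 and 1 in Ccdc101 KO melanoma, 9 and 1 in resting T cells and 9 and 2 in activated T cells. The list medians were 0.83, 0.86, 0.70 and 0.42, beside all-gene medians near 0. The shares of all genes tested that rose and fell were 35.7% and 36.1% in control melanoma, 34.1% and 36.3% in KO melanoma, 34.1% and 35.2% in resting and 32.6% and 32.4% in activated T cells. Nfe2l1 went from 257 and 266 CPM to 702 and 708 in control melanoma (1.43 ± 0.0329) and rose by 1.60 ± 0.0333 in KO melanoma. In T cells it went from 126 and 119 CPM to 467 and 476 in resting libraries (1.94 ± 0.0399) and from 249 and 245 to 595 and 572 in activated ones (1.24 ± 0.0363). No TG library of Nfe2l1 overlapped its vehicle group, which adds nothing to its calls, since that share was not counted over all genes. Sel1l and Syvn1, which form a membrane ligase complex of the endoplasmic reticulum, rose most in control melanoma (3.45 ± 0.0312 and 3.13 ± 0.0437). Nfe2l1 also rose with activation (1.01 ± 0.0406) and in activated Atp2a2 KO cells (0.30 ± 0.0369). Nfe2l2, encoding the related factor NRF2, rose with TG by 0.11 ± 0.0422 in control melanoma, 0.32 ± 0.0412 in KO melanoma, 0.72 ± 0.0578 in resting and 0.72 ± 0.0646 in activated T cells, and fell with activation (-0.71 ± 0.0653).

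Of 17 other proteasome partners, TG raised 9 and lowered 7 in control melanoma, raised 9 and lowered 6 in KO melanoma, raised 7 and lowered 4 in resting T cells, and raised 5 and lowered 8 in activated T cells. These counts stand beside the all-gene shares given above, which were 35.7% higher and 36.1% lower in control melanoma and 34.1% and 35.2% in resting T cells. Pomp, the chaperone that matures the 20S core, fell in each of them. It went from 124 and 129 CPM to 75.6 and 70.5 in control melanoma (-0.79 ± 0.0506) and from 136 and 132 to 69.05 and 67.9 in resting T cells (-0.97 ± 0.0497), and fell by 0.68 (SE 0.05) in KO melanoma and by 0.56 (SE 0.0449) in activated T cells. Usp14, a deubiquitinase of the cap, fell by 0.66 (SE 0.0446) in control melanoma. Akirin2, which brings proteasomes into the nucleus, rose by 0.71 ± 0.0512 there. Activation raised 11 partners and lowered 4, where 35.3% of all genes rose and 39.1% fell. The cap subunit Adrm1 (0.82 ± 0.0676) and the deubiquitinase Uchl5 that binds it (1.13 ± 0.0516) rose, and the cap subunit Sem1 fell (-0.24 ± 0.0474). Adrm1 fell with TG in activated T cells (-0.36 ± 0.0627) and was not called in resting ones (0.037 ± 0.0769). The 7 genes of ubiquitin supply did not move one way, with 3 higher and 3 lower after activation, and 1 higher and 4 lower with TG in resting T cells, where 34.1% of all genes rose and 35.2% fell.

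Most of the list of 17 interferon and antigen presentation genes fell with activation. With vehicle 2 rose and 15 fell, with a median log2 change of -0.79, where 35.3% of all genes rose and 39.1% fell. Irf1, a transcription factor of immunosubunit genes, went from 242 and 236 CPM to 40.2 and 34.8 (-2.66 ± 0.0518). Nlrc5, the activator of MHC class I genes, went from 668 and 703 to 237 and 223 (-1.57 ± 0.04598), and Tap1 (-1.17 ± 0.0367), a peptide transporter gene, also fell. The groups of Irf1 and Nlrc5 did not overlap, which adds nothing to their calls, since that share was not counted over all genes. The genes that rose were Irf8 (1.54 ± 0.04004) and Ifng, which went from 9.01 and 9.79 CPM to 4712 and 4874. TG in resting T cells raised 5 and lowered 9 of the 17, beside 34.1% and 35.2% of all genes. Irf1 (-1.13 ± 0.0453) and Tapbp (-0.97 ± 0.0399) were lower there, while Ifng reached 1481 and 1502 CPM. In activated T cells TG raised 8 and lowered 7, beside 32.6% and 32.4% of all genes, and Ifng reached 10397 and 10209 CPM. In Ccdc101 KO melanoma with vehicle 5 of 14 tested genes were higher and 0 lower, beside 12.4% and 13.3% of all genes. Nlrc5 was among those higher, at 7.26 and 4.21 CPM against 0.548 and 0.826 in control cells (3.09 ± 0.309). The call of Nlrc5 rests on low counts in the control libraries, and calls of list genes were not recomputed under the alternative settings. Tap1 overlaps Psmb9 on the opposite strand by 212 bases, 5.79% of the exon length of Psmb9, and reads there cannot be told apart without the strand of counting, which is not given in the sources used here. Exons of 15 of the 50 members overlap another gene, 12 of them on the opposite strand. Among these, Psmb7 shares 11.8% of its exon length with Nek6 and Psmc3ip 21.2% with Mlx, both on the opposite strand. Whether shared reads enter their values was not tested.

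**Figure D5:**
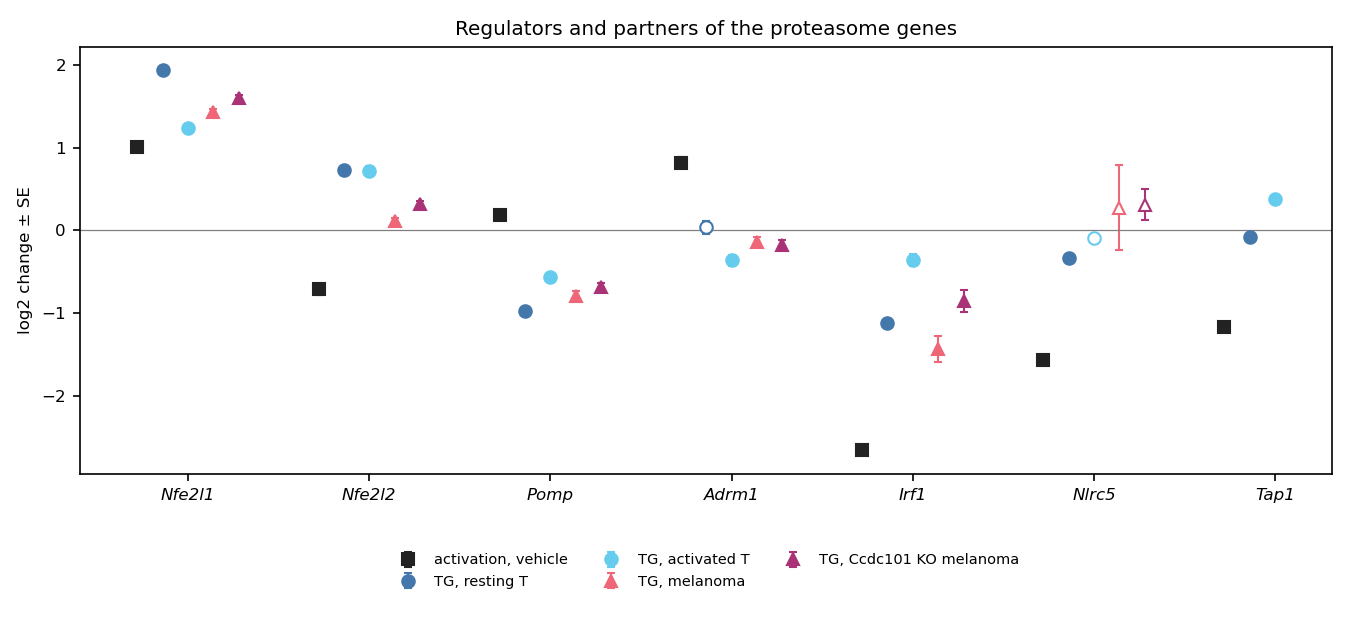
Log2 change ± SE of 7 regulators and partners of the proteasome genes with activation, with TG in resting and activated T cells and with TG in control and Ccdc101 KO melanoma. Filled symbols passed an adjusted p of 0.05, open ones did not, and Tap1 was not tested in melanoma; with TG Nfe2l1 lies above 0 and Pomp below 0 in the 4 cell states shown, Nfe2l1 at 1.94 in resting T cells.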

How the data were processed

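RNA was sequenced from 20 libraries of mouse B16F10 melanoma and OT-I CD8 T cells in 10 groups of 2. The authors deposited whole-number counts of reads per Ensembl gene identifier, made with STAR 2.6.0c and HTSeq on GRCm38/mm10, per the submitters' processing notes. The HTSeq version, its annotation release and its strand setting are not given in the sources used here. Identifiers were named with GENCODE M21. The 512 without a name held 0.0759% of counts and were not removed, so those that passed the low-count filter are among all genes tested. No column of values was left unused.

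Counts were fitted with edgeR 4.0.16 in R 4.3.3 (with limma 3.58.1), using TMM scaling, filterByExpr and robust quasi-likelihood tests, separately over the 8 melanoma libraries, the 12 T cell libraries and all 20. Groups were fitted with no replicate term, p-values were adjusted by the Benjamini-Hochberg method over all genes tested, and calls used an adjusted p below 0.05. CPM are TMM-scaled within a fit. The SE of a log2 change is its size divided by the square root of the F statistic. An exact permutation of 2 against 2 libraries cannot go below p = 0.333, so no such test was used. The share of all genes whose libraries do not overlap was not counted. Statements that the libraries of 2 groups did not overlap therefore add nothing to the calls. Library totals of 9985311 to 17462770 counts and a common coefficient of biological variation of 2.714% to 2.803% set the precision. On simulated counts with known changes, edgeR recovered 34% of genes changed 1.2-fold, 62% of those changed 1.5-fold and 96% of those changed 4-fold for TG in control melanoma. In the same run 12 genes left unchanged were also called, with 50 genes changed at each fold.

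The members and all gene lists were chosen with earlier results of these data known. Genes named are Psmb5 to Psmb10, Psme1 and Psme2, up to 4 called members in each direction of a comparison with at least 10 CPM in the higher group, members whose role is described, and fixed regulators and up to 4 called genes a direction of each list. The values of 1 gene that this rule names are not reported here. Alternatives were relative log expression scaling, other low-count filters, only the groups compared, a replicate term, DESeq2 1.42.0, omission of the labelled resting Atp2a2 KO libraries, omission of each library and another gene length. Promoter windows are RefSeq's on GRCm38.p6.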

Additional observations from a re-analysis of the deposited data

Results flagged for a closer look

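A test of the difference between TG effects (edgeR's quasi-likelihood test, Benjamini-Hochberg adjusted over all genes tested) called 7 of 46 members between Ccdc101 KO and control melanoma, 31 of 48 between activated and resting T cells, 30 of 48 between control melanoma and resting T cells and 24 of 48 between control melanoma and activated T cells. In the same order, the shares of all genes called positive and negative were 7.16% and 5.95%, then 26.7% and 25.2%. For the melanoma and T cell comparisons they were 23.6% and 23.8%, then 21.6% and 21.8%. The 30 results given here as log2 differences are all members called between Ccdc101 KO and control melanoma and, in the other comparisons, the called genes among Psmb5 to Psmb10, Psme1 and Psme2 or with called effects of opposite sign, each at 10 CPM or more in a group and with Psmc3ip left out. Between Ccdc101 KO and control melanoma, KO minus control, the TG effect differed for Psmc5 0.17 (adjusted p = 0.0387), Psmc6 0.19 (adjusted p = 0.0162), Psmd1 0.21 (adjusted p = 0.00553), Psmd2 0.18 (adjusted p = 0.00728), Psmd7 0.17 (adjusted p = 0.0405), Psme3 0.14 (adjusted p = 0.0379) and Psmd5 0.30 (adjusted p = 0.00659). Between activated and resting T cells, activated minus resting, it differed for Psmb6 -0.15 (adjusted p = 0.0469), Psmd7 -0.87 (adjusted p = 4.68e-17), Psmb8 0.66 (adjusted p = 3.50e-16), Psmb9 0.74 (adjusted p = 3.01e-13), Psmb10 1.01 (adjusted p = 7.99e-16), Psme1 0.26 (adjusted p = 9.30e-05), Psme2 -0.16 (adjusted p = 0.0148), Psme3 -0.67 (adjusted p = 1.80e-16) and Psmg3 -0.71 (adjusted p = 5.47e-05). Between control melanoma and resting T cells, melanoma minus T cells, it differed for Psma3 -0.42 (adjusted p = 4.10e-06), Psmb7 -0.25 (adjusted p = 9.51e-04), Psmc2 -0.64 (adjusted p = 2.37e-12), Psmd7 -0.89 (adjusted p = 2.06e-20), Psmb10 1.05 (adjusted p = 6.97e-08), Psme1 -0.24 (adjusted p = 0.0174), Psme2 -1.20 (adjusted p = 2.18e-14), Psmd5 -1.21 (adjusted p = 1.62e-23) and Psmg3 -0.53 (adjusted p = 0.00204). Between control melanoma and activated T cells it differed for Psmb7 -0.32 (adjusted p = 7.79e-06), Psmc2 -0.64 (adjusted p = 2.59e-13), Psme1 -0.51 (adjusted p = 1.00e-06), Psme2 -1.05 (adjusted p = 4.66e-12) and Psmd5 -0.96 (adjusted p = 6.96e-20). Single calls were recomputed under the alternatives only for Psmb5 to Psmb10, Psme1 and Psme2, so none of the 7 between Ccdc101 KO and control melanoma was. The count of 5 standard members among those 7 was 2 with DESeq2 and ran from 0 to 10 when 1 library was left out. The call for Psmb6 between activated and resting T cells was lost with the replicate block (-0.15), without the labelled resting Atp2a2 KO libraries (-0.14), with DESeq2 (-0.17) and in 8 of the fits that left out 1 library. That for Psme2 was lost without resting vehicle replicate 2, activated vehicle replicate 2 or activated TG replicate 2, with values of -0.12 to -0.15. That for Psme1 between melanoma and resting T cells was lost with DESeq2 (-0.25) and without control melanoma vehicle replicate 2, control melanoma TG replicate 2 or resting vehicle replicate 2, with values of -0.25 to -0.20. The causes were not tested.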

How the results depend on the processing

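Class counts were recomputed in 1 direction for each comparison (with activation, standard members higher and inducible members lower; with TG, standard and inducible members lower, except inducible members higher in activated T cells), and counts in the other direction were not recomputed. Of the recomputed counts, those of activation and of TG in control melanoma, Ccdc101 KO melanoma, resting and activated T cells stayed within 1.5 times under every alternative run. Relative log expression scaling gave 1 standard member higher in the Ccdc101 KO with vehicle in place of 2. With no low-count filter that count was also 1, the KO minus control difference of TG effects had 10 standard members higher in place of 5, the activated Atp2a2 KO had 3 inducible members lower in place of 1, and TG minus Atp2a2 KO had 7 standard members higher in place of 11. The filter of 5 CPM in 2 libraries gave 3 for the KO minus control difference. The replicate block also gave 3 there and moved no other class count by over 1.5 times, although it lost the call of Psmb6 in the activated minus resting difference of TG effects. Same-numbered libraries did not deviate together (r from -0.111 to 0.0472 over 6 pairs of melanoma groups and from -0.168 to 0.186 over 15 of T cells), so the numbers were not read as pairs. DESeq2 gave 1 standard and 0 inducible members higher in the Ccdc101 KO with vehicle (2 and 2 by edgeR), 9 and 1 with TG (14 and 2), 2 standard members in the KO minus control difference, 0 inducible members lower in the activated Atp2a2 KO and 1 lower in the melanoma minus resting T cell difference of TG effects (2 by edgeR). Leaving out each library in turn gave 0 to 2 standard and 1 to 2 inducible members higher in the Ccdc101 KO with vehicle, 6 to 16 and 1 to 2 with TG, 0 to 10 standard members in the KO minus control difference, 12 to 27 standard and 0 to 3 inducible members lower in the activated Atp2a2 KO, and 1 to 2 inducible members lower in the melanoma minus resting T cell difference. The inducible count of 1 in the activated Atp2a2 KO became 3 without resting TG replicate 1 or 2, 2 without KO replicate 2, and 0 without activated vehicle replicate 2 or KO replicate 1. The 2 inducible members of the Ccdc101 KO became 1 with vehicle without control vehicle replicate 1 or either KO vehicle replicate, and 1 with TG without control TG replicate 2 or KO TG replicate 1. That of the melanoma minus resting T cell difference became 1 without control melanoma vehicle replicate 2, control melanoma TG replicate 2 or resting vehicle replicate 2. Signs turned only among changes that were not called: with no low-count filter for Psme2 with activation (0.058) and for Psmb5 (-0.018) and Psme2 (-0.033) in the activated Atp2a2 KO, and with only the groups compared for Psme2 with activation (0.016). Leaving out a library also turned Psme2 with activation (-0.077 to 0.020), Psmb8 with activation under TG (-0.079 to 0.0080), Psmb5 (-0.0073 to 0.057) and Psme2 (-0.053 to 0.072) in the activated Atp2a2 KO, Psme2 in the labelled resting KO (-0.016 to 0.064) and Psmb7 in the Ccdc101 KO with vehicle (-0.014 to 0.060). The causes were not tested. Without the labelled resting Atp2a2 KO libraries the 22 class counts that could be recomputed stayed within 1.5 times. Depth limited Psmb8 and Psmb9 in melanoma, where no change could be measured.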
